A study of Mus musculus with 6 samples.

Results

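The genes described here encode the machinery that copies DNA: the symbols Mcm, Orc, Rfc and Gins followed by a digit, the subunits of DNA polymerases alpha, delta and epsilon, and 15 further genes of priming, single-strand binding, licensing, flap removal, nucleotide supply and chromatin assembly. By symbol alone, 49 of the 10128 genes that the authors' deposited table holds belong to this set. Of these, 48 encode replication factors, and Mcm3ap, a protein of messenger RNA export that also binds MCM3, enters by the letter of its symbol. Gene expression was measured by RNA sequencing of messenger RNA in mouse embryonic stem (ES) cells, in 3 libraries of Tex19.1-/- cells and 3 libraries of Tex19.1+/- cells. All derive from the male 129/Ola line E14Tg2a, at passages 12 to 18, grown in serum with leukaemia inhibitory factor, and the Tex19.1+/- cells carry a disrupted copy as well. The labels do not say whether the 3 libraries of a genotype come from separate clones or cultures, so the authors' p-values may measure technical spread. Values per library were not used here: the authors' deposited table gives 1 log2 fold change, 1 mean level, 1 p-value and 1 adjusted p per gene.

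Replication is prepared in G1, when the origin recognition complex (ORC) with Cdc6 and Cdt1 loads rings of the MCM helicase onto DNA, a step called licensing. At the start of S phase Cdc45 and the GINS complex turn the ring into an active helicase, polymerase alpha-primase lays down primers, the RFC complex loads the sliding clamp PCNA, and polymerases epsilon and delta extend the strands. Many of these genes are targets of E2F transcription factors in somatic cells, and mouse ES cells, which have a short G1 phase, express licensing factors highly.

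Because E2F factors are known regulators of many members, some of the promoter letters that E2F factors recognise are shown first. RefSeq windows of 300 bases (250 before to 50 after the annotated start, GRCm38.p6) matched 41 of the 49 genes. The letters TTTCGCGC or TTTGGCGC were searched on both strands, and overlapping matches of both were merged. Other forms of the E2F motif were not searched, so a window without these letters may still hold one. They stood in a window of 10 of these 41 genes, or 24.4%, against 2.04% of the 7640 genes of the deposited table that have a window and 0.929% of all 27025 genes with one. The matches are printed below on the strand of the gene, 5′ to 3′, with up to 10 bases on each side and the matched letters in capitals.
Cdt1: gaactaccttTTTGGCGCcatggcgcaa
Mcm3: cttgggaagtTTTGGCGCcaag
Mcm5: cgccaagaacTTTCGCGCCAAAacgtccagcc
Mcm6: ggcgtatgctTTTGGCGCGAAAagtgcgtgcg
Mcm6 second site: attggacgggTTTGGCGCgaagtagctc
Mcm7: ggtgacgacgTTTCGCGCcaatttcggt
Mcm8: cgtcatagacGCGCCAAAaaa
Orc1: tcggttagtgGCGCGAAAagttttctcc
Pola1: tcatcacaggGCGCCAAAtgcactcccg
Pole2: gtcggcggtgGCGCCAAAtcgcgaacat
Rfc3: cgtcgcacgcTTTCGCGCtcgcgggaaa
Of the 10 genes, 5 belong to the MCM family, and the matches of Mcm5 and the first of Mcm6 read as the motif on both strands at once. The shorter CCAAT box stood in 25 of the 41 genes (61.0%), against 43.9% of the genes of the deposited table with a window. The palindrome bound by the factor NRF1 stood in 0 of the 41, against 2.68%. A match is a description of the window and not a site of binding, and a window without one says only that these letters are not in it. The windows of Cdc6, Dut, Mcm7, Mcm9 and Pole4 lie wholly inside the gene as GENCODE places it, and hold nothing before its GENCODE start.

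The targeted gene Tex19.1 stood at a log2 fold change of -6.92 per the authors' deposited table, the lowest of all genes. The direction of the fold changes is not named there and was taken from this gene, so a positive value here means more transcript in Tex19.1-/- cells. All 13 listed ES cell markers were measured, led by Dppa5a at 1566, Pou5f1 at 1507 and Tdgf1 at 890.1 CPM (read counts scaled to library size, here the mean over libraries) per the authors' deposited table. Of these markers 6 rose, 4 fell and 3 did not pass, where 25.2% of all genes rose and 26.5% fell. Of 13 listed markers of fibroblasts and feeder cells 4 were measured, of which 2 rose and 2 fell, and Fn1, Vim and Cyr61 had the highest mean levels among them, 864.7, 208.9 and 15.7 CPM per the authors' deposited table. Of 16 listed endoderm markers 11 were measured and all 11 fell, with a median log2 fold change of -2.08. The 3 of highest mean level, Sparc, Lama1 and Lamb1, stood at -0.82, -1.19 and -0.56 per the authors' deposited table. Computed from the means and fold changes, the 11 markers sum to about 458.4 CPM in Tex19.1-/- cells and 1073 CPM in Tex19.1+/- cells, while the 49 replication genes sum to about 6455 CPM in Tex19.1-/- cells and 6334 CPM in Tex19.1+/- cells. Sox17, Foxa2, Amn, Afp and Ttr were not analysed here. The part of endoderm-like cells in the values of the replication genes was not tested.

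With the threshold set at 0.05 on the adjusted p of the authors' deposited table, 13 of the 49 genes rose in Tex19.1-/- cells, 4 fell and 32 did not pass. That is 34.7% called, where 51.7% of all 10128 genes were called (25.2% higher and 26.5% lower). Among the 8073 genes at or above the level of the weakest member, 51.5% were called, 26.2% higher and 25.3% lower. The members lie well above the lower edge of the deposited table: the lowest, Mcm9, averaged 12.4 CPM, against 3.52 CPM for the lowest gene of the table. In these bulk libraries, fewer cells of a type and less RNA per cell cannot be told apart.

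The changes were small. Log2 fold changes of the 49 genes ran from -0.25 for Rrm2 to 0.32 for Orc5 per the authors' deposited table, a level 0.84 times and 1.25 times that of Tex19.1+/- cells. The median was 0.04 over the members and 0.0031 over all genes. Less the median of genes of like expression, the members had a median of 0.02, and 4 of them changed sign. Taken without sign, the median size was 0.06 over the members and 0.11 over all genes. It was 0.10 over the 8073 genes at or above the level of the weakest member. Of the members 89.8% stood within 0.2 of 0, against 70.8% of all genes and 75.0% of those 8073 genes. A 2-fold change was reached by 0 members and by 148 genes of the table. Positive values were held by 33 of the 49 members (67.3%), against 50.8% of all genes. Read as normal tests, the authors' p-values imply standard errors of 0.03 to 0.07 on the log2 scale for these genes, with a median of 0.04; these errors are an approximation, since the form of the authors' test is not given in the sources used here. On the same reading, the 95% intervals of 30 of the 32 genes that did not pass lie within 0.2 of 0, and over all 32 they reach from -0.27 to 0.23. Judged by how far genes of similar level differ from each other, rather than by the authors' p, 0 of the 49 passed, where 6.21% of all genes did (1.89% higher and 4.32% lower). The smallest distance that passed in any gene was 0.29, and members lay at most 0.31 from genes of like level. Their sizes are thus close to or under what this comparison could call.

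**Figure D1:**
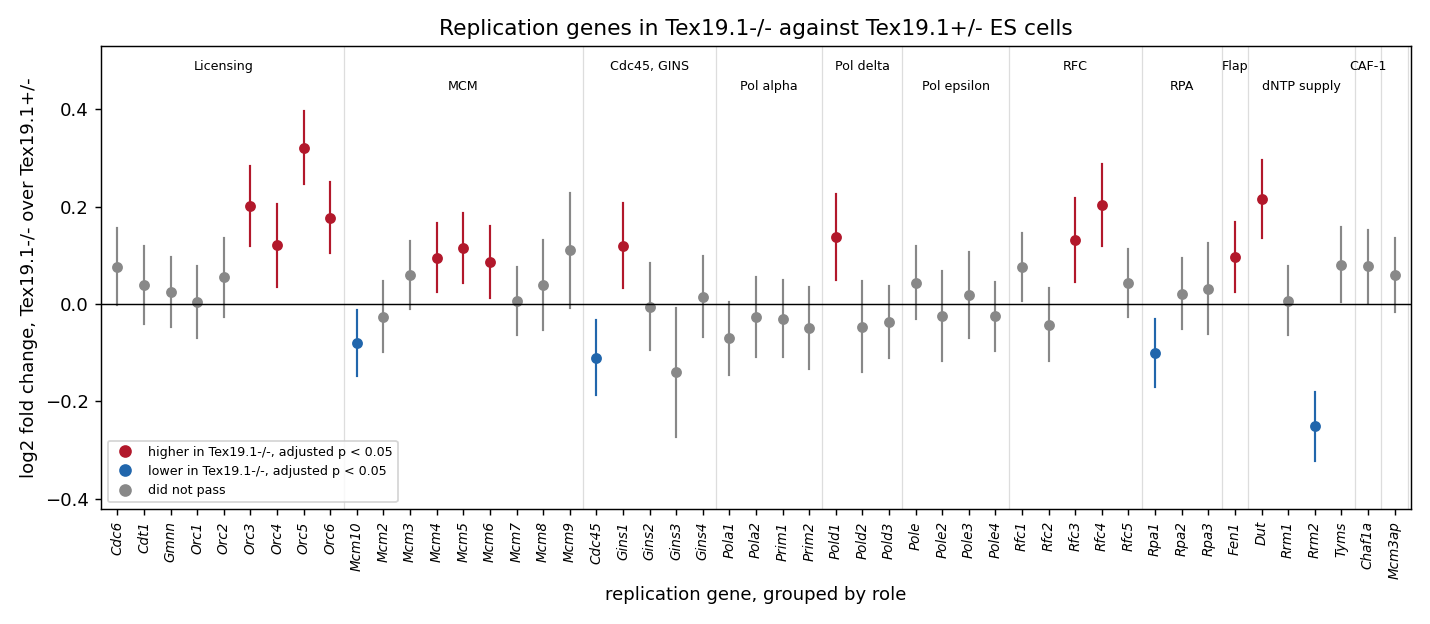
Log2 fold change of each of the 49 genes, Tex19.1-/- over Tex19.1+/- per the authors' deposited table, grouped by role along the x axis; bars are the 95% intervals implied by the authors' p-values read as normal tests. Orc5 at 0.32 is the highest and Rrm2 at -0.25 the lowest, and the 11 polymerase and primase genes hold 1 call, Pold1.

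**Figure D2:**
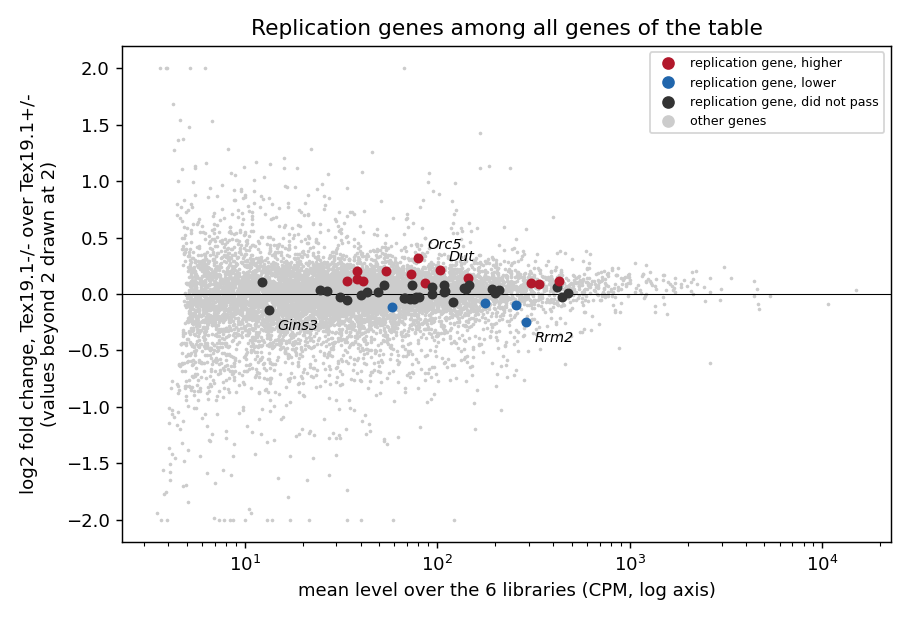
Log2 fold change (Tex19.1-/- over Tex19.1+/-) against mean level over the 6 libraries in CPM on a log axis, for all 10128 genes in grey and the 49 replication genes in colour. The replication genes span 12.4 to 475.4 CPM and stay between -0.25 and 0.32.

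**Figure D3:**
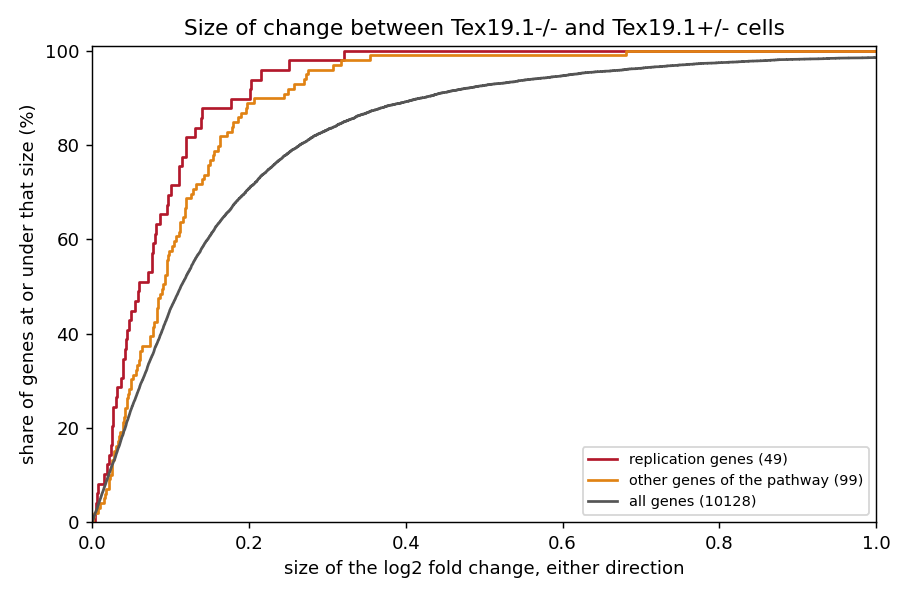
Cumulative share of genes, in %, by the size of the log2 fold change in either direction, for the 49 replication genes, 99 other genes of the pathway and all 10128 genes. At a size of 0.2 the share reaches 89.8% of the replication genes, 88.9% of the other genes of the pathway and 70.8% of all genes. For the 8073 genes at or above the level of the weakest replication gene, not drawn, it is 75.0%. The x axis ends at 1.

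Licensing genes held the largest rise. The 6 ORC subunits, which together mark origins of replication, all had positive values, and 4 of them rose, where 25.2% of all genes did. Set against genes of like expression, Orc1 alone turned negative, at -0.01. Orc5, an ATP-binding subunit on chromosome 5 from 22486485 to 22550429 (GRCm38, minus strand, GENCODE release M21), averaged 79.7 CPM and stood at 0.32 (adjusted p = 8e-16 per the authors' deposited table). Orc3, on chromosome 4 from 34570796 to 34614944, stood at 0.20 (adjusted p = 5.65e-06) per the authors' deposited table. Orc6, the subunit that also acts in cytokinesis, was at 0.18 (adjusted p = 7.2e-06) and Orc4, another ATP-binding subunit, at 0.12 (adjusted p = 0.0124) per the authors' deposited table. Orc1, the largest subunit and the one whose binding to the complex is regulated through the cell cycle in mammals, did not pass at 0.0039 (adjusted p = 0.942), nor did Orc2 at 0.05 (adjusted p = 0.263) per the authors' deposited table. The 4 subunits that rose are thus Orc3 to Orc6, with a spread of 0.32 between the highest and the lowest of the 6; differences between subunits were not tested.

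The factors that load MCM with ORC did not pass. Cdc6, the loading ATPase, stood at 0.08 (adjusted p = 0.0981), Cdt1, which brings MCM to the origin, at 0.04 (adjusted p = 0.443), and Gmnn, which encodes the Cdt1 inhibitor geminin, at 0.02 (adjusted p = 0.585) per the authors' deposited table. Cdt1 and Gmnn had nearly the same level per length, 95.7 and 97.8 CPM per kb of main transcript.

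Of the 6 subunits of the MCM ring, 3 rose and none fell, where 25.2% of all genes rose and 26.5% fell. Less the median of genes of like expression, Mcm5, Mcm4 and Mcm6 stood at 0.06, 0.05 and 0.04. Mcm5 stood at 0.11 (adjusted p = 0.00415), Mcm4 at 0.09 (adjusted p = 0.0192) and Mcm6 at 0.09 (adjusted p = 0.0426) per the authors' deposited table. Mcm3 at 0.06, Mcm7 at 0.0059 and Mcm2 at -0.03 per the authors' deposited table did not pass. Mcm10, which is no ring subunit and helps the helicase to start, fell slightly, by 0.08 on the log2 scale (adjusted p = 0.0423) per the authors' deposited table. Mcm8 and Mcm9, which form a separate helicase of homologous recombination, were the least abundant of the family and did not pass, at 0.04 and 0.11 per the authors' deposited table. Mcm3ap did not pass either, at 0.06 (adjusted p = 0.197) per the authors' deposited table, so the counts of rises and falls are the same with and without it.

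The cofactors that complete the helicase went both ways. Cdc45, which joins the MCM ring at the start of S phase, fell by 0.11 on the log2 scale (adjusted p = 0.0118), and Gins1 rose by 0.12 (adjusted p = 0.0163) per the authors' deposited table. The other GINS subunits did not pass: Gins4 stood at 0.01, Gins2 at -0.0052 and Gins3 at -0.14 (adjusted p = 0.0692) per the authors' deposited table. Gins3 had the widest implied error of all 49 genes, 0.07, at a mean of 13.4 CPM.

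Of the 11 polymerase and primase genes 1 was called, or 9.09%, against 51.7% of all genes. All 4 genes of polymerase alpha-primase, which starts each new strand, had small negative values that did not pass: Pola1 at -0.07, Prim2 at -0.05, Prim1 at -0.03 and Pola2 at -0.03 per the authors' deposited table; less its neighbours' median, Pola2 alone turned positive, at 0.02. Of polymerase delta, which copies the lagging strand, the catalytic subunit gene Pold1 rose by 0.14 (adjusted p = 0.00541), while Pold2 at -0.05 and Pold3 at -0.04 per the authors' deposited table did not pass. Polymerase epsilon, which copies the leading strand, did not pass with any subunit: Pole stood at 0.04, Pole3 at 0.02, and Pole2 and Pole4 both at -0.02 per the authors' deposited table. The part of the rule that names a polymerase symbol followed by a digit would also take Pold4, which was not analysed here.

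The clamp loader held 2 rises. Rfc4, on chromosome 16 from 23113943 to 23127737, stood at 0.20 (adjusted p = 8.55e-06) and Rfc3 at 0.13 (adjusted p = 0.00734) per the authors' deposited table; both are small subunits that also serve in the alternative clamp loaders. Rfc1, the large subunit specific to the PCNA loader, was at 0.08 (adjusted p = 0.0576), Rfc5 at 0.04 and Rfc2 at -0.04 per the authors' deposited table, and these did not pass. Of the RPA trimer, which coats single-stranded DNA, the large subunit gene Rpa1 fell by 0.10 (adjusted p = 0.0113), and Rpa2 at 0.02 and Rpa3 at 0.03 per the authors' deposited table did not pass. Fen1, the nuclease that trims flaps of Okazaki fragments, rose by 0.10 (adjusted p = 0.0185), and Chaf1a, the large subunit of the histone chaperone that works behind the fork, did not pass at 0.08 (adjusted p = 0.0763) per the authors' deposited table.

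Genes of nucleotide supply held the largest fall and the second largest rise of the set. Rrm2, the regulated small subunit of ribonucleotide reductase, on chromosome 12 from 24708241 to 24714146 (plus strand), fell by 0.25 on the log2 scale (adjusted p = 3.78e-11), to 0.84 times the Tex19.1+/- level per the authors' deposited table. Rrm1, the large subunit of the same enzyme, did not pass at 0.0068 (adjusted p = 0.893) per the authors' deposited table, and the difference between the subunits was not tested. Dut, the dUTPase that keeps uracil out of DNA, on chromosome 2 from 125247190 to 125258608, rose by 0.22 (adjusted p = 5.8e-07) per the authors' deposited table. Tyms, which makes thymidylate, did not pass at 0.08 (adjusted p = 0.074) per the authors' deposited table.

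The windows of the genes with the largest rise and fall are printed here beside that of Mcm5, the MCM gene with the smallest p-value so that windows with and without the E2F letters can be compared. They lie at chr5:22550289-22550588, minus strand for Orc5, chr12:24708004-24708303, plus strand for Rrm2 and chr8:75109259-75109558, plus strand for Mcm5 (RefSeq, GRCm38.p6), with matches to the E2F letters in capitals.
Orc5: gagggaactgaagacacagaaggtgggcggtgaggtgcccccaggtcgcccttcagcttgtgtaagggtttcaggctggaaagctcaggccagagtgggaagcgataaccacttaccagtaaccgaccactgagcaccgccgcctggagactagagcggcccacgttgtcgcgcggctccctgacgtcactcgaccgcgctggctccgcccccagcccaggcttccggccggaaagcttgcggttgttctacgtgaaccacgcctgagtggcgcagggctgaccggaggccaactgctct
Rrm2: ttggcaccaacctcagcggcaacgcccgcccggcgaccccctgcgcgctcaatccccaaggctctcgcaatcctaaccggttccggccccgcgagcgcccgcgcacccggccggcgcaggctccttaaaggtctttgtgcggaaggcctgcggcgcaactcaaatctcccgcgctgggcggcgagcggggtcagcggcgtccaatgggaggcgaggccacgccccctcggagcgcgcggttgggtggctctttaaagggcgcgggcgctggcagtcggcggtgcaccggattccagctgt
Mcm5: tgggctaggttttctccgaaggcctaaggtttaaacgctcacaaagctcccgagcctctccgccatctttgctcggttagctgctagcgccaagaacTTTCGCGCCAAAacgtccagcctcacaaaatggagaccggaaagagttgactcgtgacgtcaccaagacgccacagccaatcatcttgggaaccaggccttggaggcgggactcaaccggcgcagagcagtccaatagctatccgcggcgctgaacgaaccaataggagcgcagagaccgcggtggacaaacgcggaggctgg
The Mcm5 match begins 153 bases before the annotated start, and the windows of Orc5 and Rrm2 hold none. Of the 10 genes with E2F letters 3 rose and 0 fell, with a median log2 fold change of 0.04 (Mcm5, Mcm6 and Rfc3 were called). Of the 31 genes without them 8 rose and 4 fell, also with a median of 0.04. Of all genes, 25.2% were called higher and 26.5% lower, 51.7% in all, a larger share than in either of these groups. Cdc6, Dut, Mcm9 and Pole4 are counted as without the letters from windows that lie wholly inside the GENCODE gene. Since other forms of the E2F motif were not searched, these groups do not separate genes with and without E2F sites.

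Levels of different genes were compared per length, as mean CPM over both genotypes per kb of the main GENCODE transcript. The members had a median of 36.4 CPM per kb, against 11.3 for all genes with a length, and 44 of the 49 stood above that median of all genes. The MCM ring held the highest level of all 49 genes, and its 6 subunits lay within 1.88 times of each other. Mcm7 had 160.5 CPM per kb, followed by Mcm3 at 137.9, Mcm2 at 132.6, Mcm5 at 127.0, Mcm6 at 115.9 and Mcm4 at 85.4. Subunits of ORC spread more widely, from 56.9 CPM per kb for Orc6 to 10.2 for Orc4, a ratio of 5.59, and those of GINS from 36.7 for Gins4 to 5.30 for Gins3, a ratio of 6.92. RFC ran from 68.8 CPM per kb for Rfc5 to 15.3 for Rfc2. RPA ran from 60.0 CPM per kb for Rpa2 to 40.1 for Rpa3. Rrm2, at 131.6 CPM per kb, stood 2.65 times above Rrm1 at 49.7. With merged exons in place of the main transcript the ratio was 2.08 for the MCM ring, 5.22 for ORC and 7.45 for GINS. The choice of transcript sets these levels, and no error across libraries can be given for them.

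**Figure D4:**
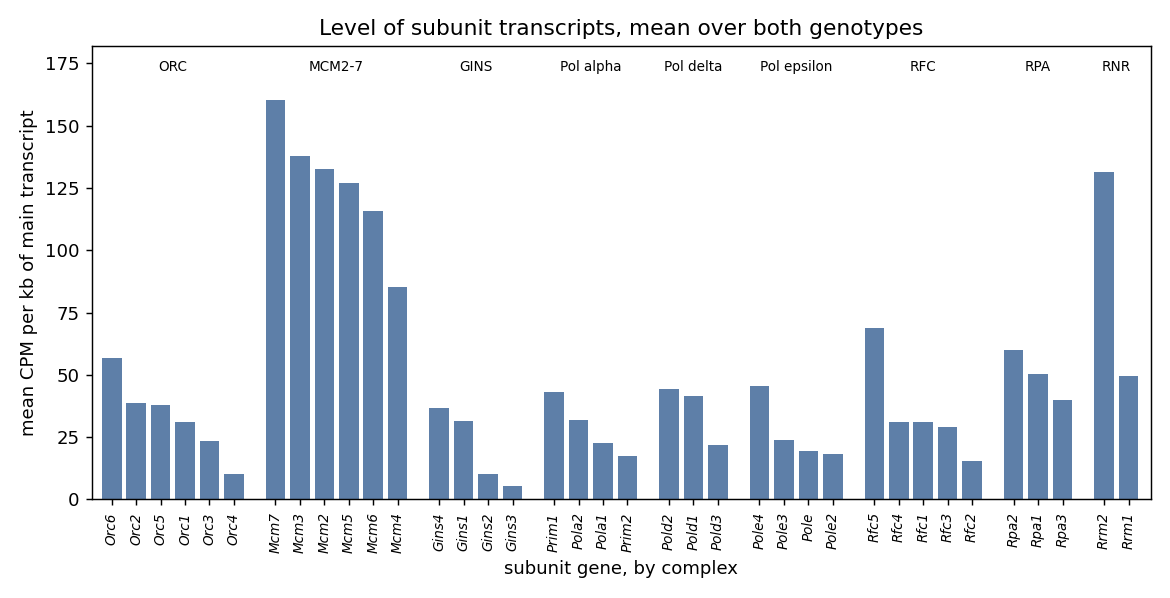
Mean level over both genotypes in CPM per kb of the main GENCODE transcript, for the subunit genes of 9 complexes, each sorted from high to low; bars start at 0 and have no error bar, since 1 mean per gene was used. The MCM ring subunits stand between 85.4 and 160.5 and the GINS subunits between 5.30 and 36.7.

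Position in the genome was set beside each value, because on some stretches neighbouring genes were shifted together. The 49 genes lie on 15 chromosomes. The median log2 fold change of the 10 measured genes on each side of a member (10 in all for Rfc3, near the end of chromosome 5) was at least 0.1 in size for 3 of them. These were Mcm8 at 0.21, Pole4 at -0.11 and Rfc5 at -0.10, and none of the 3 was called. For the 17 called members the neighbours' medians lay between -0.05 and 0.10, the highest of them around Fen1, whose own value is 0.10. Mcm8 lies from 132816141 to 132844197 on chromosome 2, on the stretch that also holds the clamp gene Pcna. Pcna itself rose by 0.68 (adjusted p = 8.17e-70) per the authors' deposited table, with a median of 0.38 among its neighbours, while Mcm8 did not pass at 0.04.

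Exons of 12 members overlap exons of another measured gene, in every case on the opposite strand. The library kit keeps the strand, but the strand setting of the counting is not given in the sources used here. Of the called members these are Orc4, Orc6, Rfc4, Fen1 and Cdc45, with 9.48%, 7.14%, 13.4%, 5.37% and 2.43% of their merged exons shared. Their partners Acvr2a, Vps35, Eif4a2, Tmem258 and Ufd1 (listed as Ufd1l) had log2 fold changes of -0.10, 0.06, 0.09, 0.14 and -0.05 per the authors' deposited table. Some members that did not pass shared more of their merged exons. Gins2 shared 70.7% with Gse1, Chaf1a 33.6% with Ubxn6 and Orc2 24.0% with Nif3l1. Mcm9 shared 17.0% with Asf1a and Rfc5 15.4% with Wsb2. Gse1, Ubxn6, Nif3l1, Asf1a and Wsb2 stood at -0.0022, 0.09, 0.14, -0.02 and -0.31 per the authors' deposited table. Overlaps with annotated genes that matched no symbol of the table also touch called members. Fen1 shares 78.8% of its merged exons with the antisense gene Gm10143, on the opposite strand. Orc5 shares 4.28% with a pseudogene and Rpa1 0.856% with a microRNA gene, both on the same strand. The part of these overlaps in the values was not tested.

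Of 99 further genes of replication and nucleotide supply measured from lists of 104, 35 rose, 9 fell and 55 did not pass, so that 44.4% were called against 51.7% of all genes. Their median log2 fold change was 0.06. Among initiation factors 4 of 14 rose and 2 fell (42.9% called). The smallest p-values there belonged to the ubiquitin ligase scaffold gene Cul4b at 0.26, Dbf4, the activator of the Cdc7 kinase, at 0.19, the helicase gene Recql4 at 0.16 and Ticrr, which loads Cdc45, at -0.13 per the authors' deposited table. Of 18 genes of fork protection and checkpoint 6 rose and 1 fell (38.9% called). Rad9a of the checkpoint clamp stood at 0.24 and Hltf at 0.12 per the authors' deposited table. Smarcal1, a fork-remodelling enzyme, was at 0.13 and the checkpoint clamp gene Hus1 at -0.11 per the authors' deposited table.

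Beside Pcna, the clamp, lagging strand and topoisomerase list of 14 held 3 further rises and 1 fall. With Pcna 35.7% were called, against 51.7% of all genes. Lig3, a DNA ligase, stood at 0.20, and Rnaseh2a and Rnaseh2b, subunits of the enzyme that removes ribonucleotides from DNA, at 0.16 and 0.14 per the authors' deposited table. The ligase of Okazaki fragments, Lig1, chosen after its value was seen, did not pass at 0.04 (adjusted p = 0.299) per the authors' deposited table. Of 4 genes of the alternative clamp loaders 2 rose, Atad5, which takes PCNA off DNA, at 0.15 and Chtf8 at 0.11, while Dscc1 at -0.06 and Chtf18 at 0.00082 per the authors' deposited table did not pass.

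Of 20 genes of nucleotide supply outside the set 11 rose and 2 fell, so that 65.0% were called, against 51.7% of all genes; no difference between lists was tested. Shmt1, a folate enzyme, stood at 0.27, the nucleoside diphosphate kinase genes Nme2 and Nme1 at 0.32 and 0.25, and Tk1, the thymidine kinase of S phase, at -0.31 per the authors' deposited table. Nme1 and Nme2 adjoin each other on chromosome 11, are close paralogs among which reads may have been split, and have neighbours with medians of 0.15.

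Of 13 genes of chromatin assembly and histone supply 6 rose and none fell, so that 46.2% were called, against 51.7% of all genes. Nasp, a histone chaperone, stood at 0.21, Chaf1b, the partner subunit of Chaf1a, at 0.19, Supt16 of the FACT complex at 0.15 and Slbp, which binds the stem-loop of histone messenger RNA, at 0.12 per the authors' deposited table. Translesion and other polymerases went both ways, 2 of 13 up and 2 down: Polg2, of mitochondrial replication, at 0.35, Primpol at 0.18, Polm at -0.17 and Polk at -0.27 per the authors' deposited table. Of 3 more listed genes whose symbols begin with Pol, Poldip2 fell by 0.15, and Poldip3 at -0.06 and Polrmt at -0.05 per the authors' deposited table did not pass.

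Some regulators of the G1/S step held larger values than any replication gene of the set. Of 23 measured 5 rose, 5 fell and 13 did not pass, so that 43.5% were called, against 51.7% of all genes. Their median log2 fold change was 0.01, with values from -1.02 to 0.56. E2f2, an activating E2F factor, fell to 0.49 times the Tex19.1+/- level, at -1.02 (adjusted p = 8.64e-105) per the authors' deposited table. Its relatives E2f1 at -0.04 and E2f3 at 0.05, chosen after their values were seen, did not pass per the authors' deposited table. Rb1, the restraint on E2F factors, stood at -0.79 with a median of -0.67 among its neighbours on chromosome 14, the cyclin gene Ccnd3 at -0.63 and Ccnd1 at 0.56 per the authors' deposited table. Among the 10 genes of the set with E2F letters in their windows, the largest value in size was 0.13, that of Rfc3. Orc5 and Rrm2, whose windows lack these letters, stood at 0.32 and -0.25 per the authors' deposited table. They are the highest and lowest of the whole set and come from the larger group of 31 genes without the letters. The letters are only some forms of the E2F motif and do not show which genes E2F factors regulate in these cells. A relation between the regulators and the replication genes was not tested.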

How the data were processed

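RNA sequencing libraries were made with a stranded messenger RNA kit, per the labels' protocols, in 3 Tex19.1-/- and 3 Tex19.1+/- samples. Tools named by the submitters' processing notes are edgeR, HTSeq 0.11.2, TopHat2 2.1.0 and Trim Galore 0.4.1, with mm10 as the build; how strand was set in counting, which annotation, filter and test were used is not stated there or in the file. For each of 10128 genes the authors deposited 4 numbers, per the file headers: the log2 fold change, the mean as log2 CPM, the p-value and its adjusted form, which matches a Benjamini-Hochberg adjustment within 6.7e-05. A count model was planned had the values allowed it; values per library, and so their depth, were not used here, and the authors' edgeR values with a threshold of 0.05 stand in its place.

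All 49 members are named, as are up to 4 genes with the smallest p-value of each pathway list and 3 of highest level of each marker list; others are named as chosen after their values were seen. The members and lists were chosen with earlier results of these data known, and no list was tested. Positions, lengths and GC content come from GENCODE M21 (GRCm38, which mm10 names), where 9572 symbols and all 49 members matched. Promoters are RefSeq's; their last 25 bases stood in a GENCODE transcript of the same gene for 37 of 41 members. Python 3.11.15, pandas 2.3.3, scipy 1.17.1 and statsmodels 0.14.6 were used, and the comparison with genes of like expression was tested on simulated data. That simulation used a set spread and not that of the measured genes, so it does not show what sizes could be called here. Alternatives tried were a threshold of 0.01, Bonferroni adjustment, a least size of 0.2, centring, a minimum of 16 CPM, and p-values taken from how 301 genes of like expression spread, from fold changes less those of neighbouring genes, or after removing a lowess trend (span 0.3) by GC content and length.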

Additional observations from a re-analysis of the deposited data

How the results depend on the processing

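No paired analysis was possible because values per library were not used here; for the same reason no replicate was left out and no other scaling of counts was tried. The 13 rises and 4 falls of the replication genes were the same with genes of at least 16 CPM, after centring on the median of all genes, and without Mcm3ap. They became 8 and 1 at an adjusted p under 0.01, 5 and 1 with Bonferroni adjustment, and 4 and 1 with a least size of 0.2. Orc3, Orc5, Rfc4, Dut and Rrm2 passed under each of these 3 alternatives. The other genes of the pathway, with 35 rises and 9 falls, had 25 and 5 at an adjusted p under 0.01, 12 and 2 with Bonferroni adjustment, and 9 and 2 with a least size of 0.2.

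Against the spread of genes of like expression 0 members rose and 0 fell (6.21% of all genes passed; 1 and 1 at an unadjusted p under 0.05), and the other genes of the pathway had 1 rise and 0 falls. After removal of the GC and length trend these were 0 and 0 (1 and 1 unadjusted), and 1 and 0. With neighbouring genes subtracted they were 0 and 0 (0 and 0 unadjusted), and 0 and 0. Those alternatives use the spread between genes, and the smallest distances they called in any gene were 0.29, 0.27 and 0.50 on the log2 scale. Members lay at most 0.31 from genes of like expression, so their sizes are close to or under what these alternatives could call. Fen1 turned to -0.0026 with neighbouring genes subtracted; the cause is the median of 0.10 among its neighbours. No other called gene of the set changed direction under any of the alternatives run.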
